A study of Mus musculus with 6 samples.

Results

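Claudins, cadherins and connexins, the membrane proteins of cell junctions, were followed in hepatocyte RNA-seq after delivery of Sox4. Their genes were found by symbol in the count table: every numbered claudin (Cldn), cadherin (Cdh) and connexin (Gja to Gje) and the Tjp genes, with Ocln, F11r and Marveld2 added. This gave 73 of 53599 gene symbols, of which 24 were claudins, 23 cadherins and 20 connexins. Both groups came from livers of mice given an adeno-associated virus (AAV8), and hepatocytes were harvested 4 days later by liberase digestion and Percoll enrichment. The Sox4 group received AAV8-TBG-HA-Sox4-P2A-Cre and is labelled with the genotype Sox4, and the control group received AAV8-TBG-Cre, called empty vector (EV), and is labelled WT. By the study's methods the mice were homozygous Rosa-LSL-Cas9-EGFP on C57BL/6J, so that Cre made the hepatocytes of both groups express Cas9 and EGFP. They were male, and a few weeks old at injection. The TBG promoter is active in hepatocytes. Each group had 3 libraries. The legend of the study describes each as a separate animal.

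Cells of an epithelium are joined in layers. Near the apical side lie tight junctions, in which claudins form strands that seal the space between cells or let chosen ions through, and Tjp proteins tie the strands to actin. Adherens junctions lie below, where cadherins of neighbouring cells bind each other and catenins tie them to actin, and connexins build gap junctions, channels through which small molecules pass from cell to cell. In the liver, tight junctions between hepatocytes close off the bile canaliculus, hepatocytes carry both E-cadherin and N-cadherin, and their gap junctions are built from the products of Gjb1 and Gjb2.

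Libraries held 15090629 to 16964860 counts. Sox4 itself had 2, 0 and 3 counts in the EV libraries and 21697, 15097 and 11816 in the Sox4 libraries, which matches the labels. Levels are given in CPM, counts scaled to a common library size after trimmed mean of M-values (TMM) scaling, as mean ± SD (n = 3). Log2 fold changes (log2 FC, Sox4 over EV) and adjusted p-values are from the edgeR quasi-likelihood test with Benjamini-Hochberg adjustment over all 12691 genes past the expression filter, and a gene is said to rise or fall where the adjusted p was under 0.05. A count of 3 or fewer was taken as the floor, at 0.218 to 0.231 CPM among EV and 0.150 to 0.153 CPM among Sox4 libraries. Over all genes tested the median log2 FC was 0.04 under TMM, but 0.51 when only library size was used, and the values given are those under TMM. Of all genes tested, 55.1% changed, 29.0% rising and 26.0% falling. Of the hepatocyte markers, 7 of 10 fell, but all 10 passed the filter and their summed level ranged over 85930 to 99780 CPM among Sox4 libraries and 120800 to 144100 CPM among EV libraries. Most of that sum was Alb, at 99191 ± 12801 CPM in EV and 66525 ± 5764 CPM in Sox4.

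The sequences before the start sites of a few members are shown first, namely a claudin with no count in EV, its neighbour on the chromosome, the channel-forming claudin and a liver connexin. They are the 250 bases upstream of the annotated start, 5′ to 3′ on the gene's strand, from RefSeq (GRCm38.p6). Cldn4 lies at chr5:134946935-134947184 on the minus strand, Cldn3 at chr5:134985964-134986213 on the plus strand, Cldn2 at chrX:139800558-139800807 on the plus strand and Gjb2 at chr14:57104703-57104952 on the minus strand. Capitals mark letters of a searched motif, AACAAAG (SOX) in Cldn4, which stands on the strand opposite the gene and is printed as CTTTGTT, at base -123, and GGAATG (TEAD) in Cldn2 at base -147.
Cldn4: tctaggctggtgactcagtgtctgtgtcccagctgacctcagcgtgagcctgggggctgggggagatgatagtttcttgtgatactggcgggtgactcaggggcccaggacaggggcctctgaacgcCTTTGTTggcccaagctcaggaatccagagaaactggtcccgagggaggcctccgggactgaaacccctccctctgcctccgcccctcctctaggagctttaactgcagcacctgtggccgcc
Cldn3: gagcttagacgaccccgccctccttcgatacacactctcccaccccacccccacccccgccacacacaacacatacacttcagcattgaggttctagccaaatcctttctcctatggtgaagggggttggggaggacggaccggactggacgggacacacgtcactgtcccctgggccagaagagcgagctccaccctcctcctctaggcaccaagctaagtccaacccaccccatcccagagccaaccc
Cldn2: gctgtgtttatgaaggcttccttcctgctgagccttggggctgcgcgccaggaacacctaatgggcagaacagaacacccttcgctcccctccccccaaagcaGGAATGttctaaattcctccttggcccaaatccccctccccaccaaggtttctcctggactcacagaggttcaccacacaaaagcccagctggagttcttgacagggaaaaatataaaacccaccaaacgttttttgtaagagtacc
Gjb2: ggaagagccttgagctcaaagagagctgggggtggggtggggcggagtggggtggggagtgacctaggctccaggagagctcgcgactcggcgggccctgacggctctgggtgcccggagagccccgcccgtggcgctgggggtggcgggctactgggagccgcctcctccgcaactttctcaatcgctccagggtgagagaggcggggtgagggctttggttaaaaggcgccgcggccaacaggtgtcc

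Of the 22 members tested, 18 had such windows, 28 in all. Both strands were searched for AACAAAG and AACAATG (SOX), GGAATG (TEAD), CAAAGTCCA (HNF4) and AACCGGTT (GRHL). Cldn4 was the single tested member with AACAAAG, which 5.03% of 32851 RefSeq windows held. Cldn14 was the single one with AACAATG, held by 3.29% of windows. GGAATG stood before Cldn2 and in 1 of the 4 windows of Gjb1, against 12.64% of windows. The HNF4 letters (0.38% of windows) and the GRHL letters (0.12%) were in none of the tested members' windows. These are matches of letters and carry no measurement of binding. By base composition Cldn4 (62.0% G or C), Cldn3 (60.8%) and Gjb2 (69.2%) lay above the median window (52.4%), and Cldn2 (52.0%) lay near it.

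Of the 73 members, 48 had a count in at least 1 library and 22 passed the expression filter, and 25 had no count in any library. Of the 22 tested, 16 (72.7%) differed between groups, against 55.1% of all genes tested. Of these, 9 rose, where 29.0% of all genes rose, and 7 fell, where 26.0% of all genes fell. In 17 members the 2 groups did not overlap, against 63.0% of all genes tested. The median log2 fold change was 0.30. Setting the members at the floor to their bounds could not move it, as each of them stays on its side of the median. Of the members called, Cldn4, Cldn6, Cdh24, Gja10 and Gjc3 passed the filter only through the group where they are high. Their direction was thus largely set by the filter. With a mean count of at least 50, 11 of 15 members tested differed, against 58.1% of all genes, with a median of 0.076. By family, claudins and other tight junction genes went 7 up and 2 down of 13 tested, cadherins 2 up and 1 down of 4, and connexins 4 down of 5. The plot of fitted changes draws 21 of the 22 tested.

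**Figure D1:**
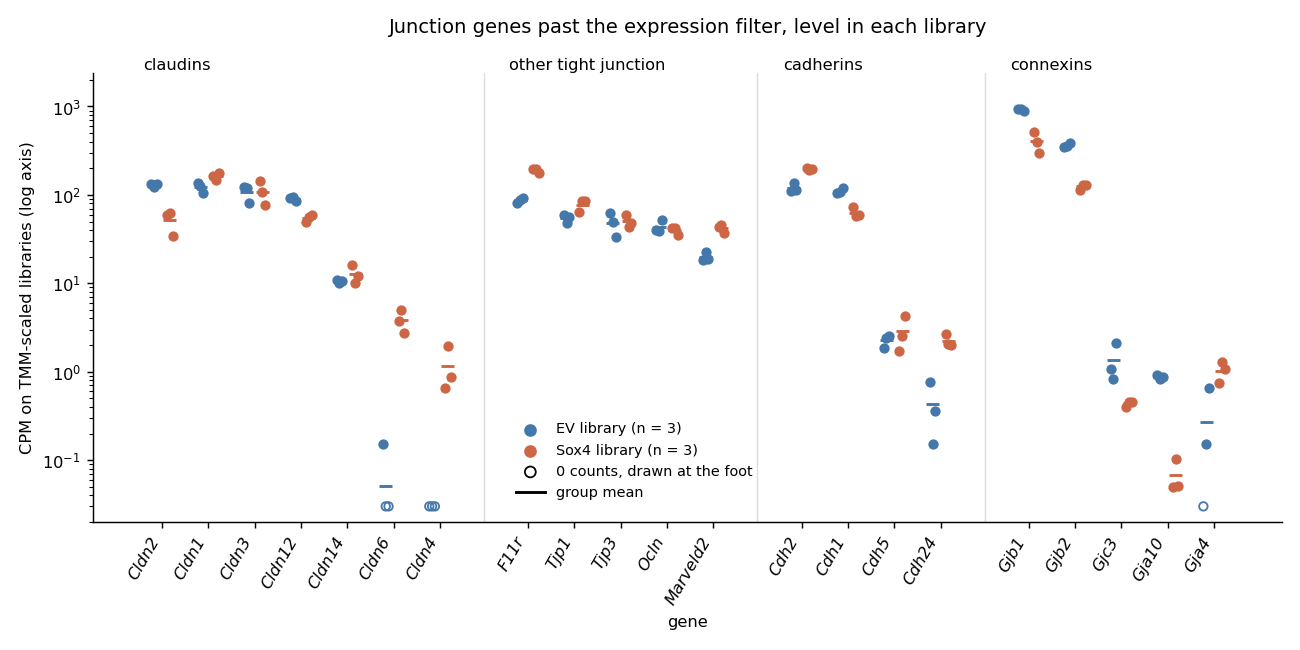
CPM on TMM-scaled libraries (log axis) of 21 of the 22 junction genes past the filter, with a point for each of 3 EV and 3 Sox4 libraries, a bar for the group mean and open circles for 0 counts. Gjb1 and Gjb2 have the highest CPM among the EV libraries and lie lower in every Sox4 library, while Cldn4 and Cldn6 have 0 to 2 counts in EV and 13 to 97 in Sox4.

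Among the claudins, Cldn6 and Cldn4 had at most 2 counts in an EV library and rose with Sox4. Cldn6, a claudin of embryonic epithelia, had 2, 0 and 0 counts in EV and 75, 97 and 54 in Sox4. Every Sox4 library was far above every EV library. Its level reached 3.82 ± 1.11 CPM, at least 16.9-fold higher than the EV floor (adjusted p = 7.96e-05). Cldn4, a claudin of bile duct, kidney and lung epithelium, had 0 counts in each EV library and 13, 38 and 17 in Sox4. It reached 1.15 ± 0.69 CPM, at least 5.10-fold higher (adjusted p = 0.00200). The highest library sets much of that bound, which was 3.35-fold without Sox4 replicate 2. Both genes stayed rare beside the main claudins, at 2.22 ± 0.65 CPM per kb of exon for Cldn6 and 0.634 ± 0.381 CPM per kb for Cldn4.

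Cldn2 and Cldn12 fell. Cldn2, whose product forms a channel for cations and water, was at 131.7, 122.9 and 133.3 CPM in EV and 59.3, 62.4 and 34.5 CPM in Sox4. All Sox4 libraries were below all EV libraries, and replicate 3 was the lowest. The mean fell to 40.2% of EV, a log2 FC of -1.31 (SE 0.28, adjusted p = 0.000570). Cldn12, a claudin without the usual binding motif for scaffold proteins, dropped from 90.6 ± 4.73 to 54.9 ± 4.51 CPM (log2 FC -0.72, SE 0.08, adjusted p = 0.000390). With library size alone Cldn12 was at -0.25 and did not pass (adjusted p = 0.0644).

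The sealing claudins Cldn1 and Cldn3 showed smaller or no measured differences. Cldn1 was at 136.3, 126.3 and 105.3 CPM in EV and 162.7, 149.2 and 177.0 CPM in Sox4. The groups did not overlap, but the highest EV and the lowest Sox4 library were close. It rose 1.33-fold (log2 FC 0.41, SE 0.13, adjusted p = 0.0238). The call was lost without EV replicate 2 (adjusted p = 0.0680), EV replicate 3 (adjusted p = 0.101) or Sox4 replicate 3 (adjusted p = 0.0684). Cldn3 ranged from 80.1 to 121.3 CPM in EV and from 77.03 to 142.6 CPM in Sox4, so that the groups overlapped throughout (log2 FC 0.03, SE 0.32, adjusted p = 0.916). Cldn14, a claudin of the inner ear and kidney, was at 10.55 ± 0.46 CPM in EV and 12.8 ± 2.93 CPM in Sox4 (0.27, SE 0.19, adjusted p = 0.237), and with library size alone it passed as higher (0.74, adjusted p = 0.00638).

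Some members lie side by side in the RefSeq gene order. Of Cldn4 and Cldn3, next to each other on chromosome 5, Cldn4 rose from 0 counts and Cldn3 had overlapping groups. Of Ocln and Marveld2, next to each other on chromosome 13, Marveld2 rose and Ocln did not pass, as given next. The differences within these pairs were not tested.

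Outside the claudin family, the tight junction genes F11r, Marveld2 and Tjp1 rose, and Ocln and Tjp3 did not pass. F11r, an adhesion molecule of the immunoglobulin family, was at 81.2, 87.6 and 93.1 CPM in EV and 196.2, 197.3 and 175.2 CPM in Sox4. Every Sox4 library had close to the same level, above all EV libraries. It rose 2.17-fold (log2 FC 1.12, SE 0.08, adjusted p = 3.46e-05). Marveld2, which encodes tricellulin, the protein of the corners where 3 cells meet, was at 18.3, 22.5 and 19.0 CPM in EV and 43.7, 45.2 and 37.1 CPM in Sox4. It rose 2.11-fold (log2 FC 1.08, SE 0.13, adjusted p = 0.000114). Ocln, the related protein occludin of the junction between pairs of cells, was at 43.8 ± 7.10 CPM in EV and 40.1 ± 4.27 CPM in Sox4. The groups overlapped, and the log2 fold change was -0.13 (SE 0.16, adjusted p = 0.464) with TMM and 0.34 with library size alone.

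Tjp1 and Tjp3 encode scaffolds that link claudins and occludin to actin. Tjp1 was at 58.5, 48.0 and 56.5 CPM in EV and 64.3, 84.3 and 84.8 CPM in Sox4. Its groups were close, with Sox4 replicate 1 only just above the EV libraries. The rise was 1.43-fold (0.52, SE 0.16, adjusted p = 0.0100), and it did not pass without EV replicate 2 (0.43, adjusted p = 0.0586). Tjp3 overlapped fully, at 48.6 ± 14.7 CPM in EV and 50.3 ± 8.32 CPM in Sox4 (0.05, SE 0.30, adjusted p = 0.865).

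**Figure D2:**
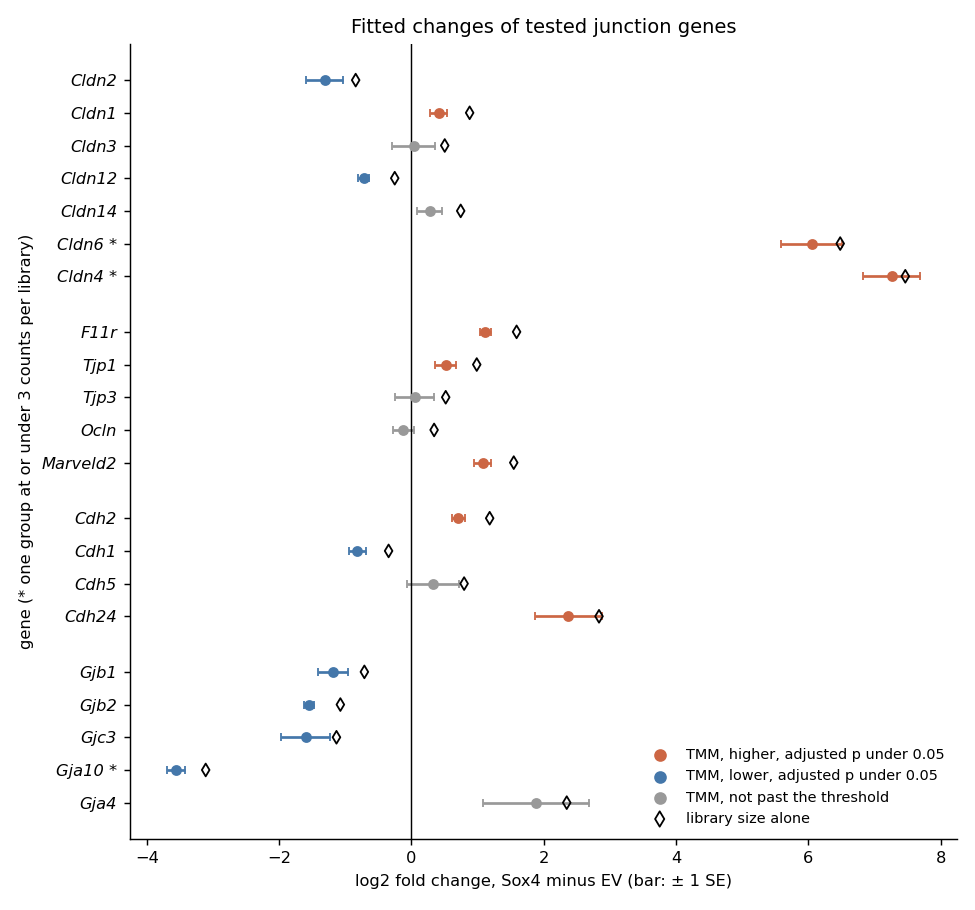
Fitted log2 fold change (Sox4 minus EV, bar ± 1 SE) of 21 of the 22 tested junction genes, coloured by call, with open diamonds for the fit with library size alone. Gjb1 and Gjb2 lie left of 0 with either scaling, as do Gja10 and Gjc3, whose direction was largely set by the filter. Gjc3 did not pass the threshold with library size alone. Ocln (-0.13 with TMM, 0.34 with library size alone) is the one gene drawn whose sign differs between the scalings.

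The main cadherins of hepatocytes moved in opposite directions. Cdh1, which encodes E-cadherin, was at 104.7, 107.8 and 121.1 CPM in EV and 72.4, 57.2 and 59.8 CPM in Sox4. All EV libraries were above all Sox4 libraries. It fell to 56.8% of EV (log2 FC -0.82, SE 0.12, adjusted p = 0.000422), and with library size alone it still passed as lower at -0.35 (adjusted p = 0.0332). Cdh2, which encodes N-cadherin, was at 109.3, 135.4 and 113.2 CPM in EV and 199.3, 191.2 and 195.3 CPM in Sox4. The Sox4 libraries were nearly equal to each other, and all lay above EV. It rose 1.64-fold (log2 FC 0.71, SE 0.10, adjusted p = 0.000816).

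The balance of the pair was compared within each library, where the scaling cancels. Per kb of exon, Cdh1 made up 62.8%, 58.4% and 65.4% of the sum of Cdh1 and Cdh2 in EV and 39.1%, 34.5% and 35.1% in Sox4. Cdh1 was thus the larger of the pair in each EV library and the smaller in each Sox4 library. The mean share was 62.2 ± 3.52% in EV and 36.2 ± 2.47% in Sox4, a difference of -25.96 percentage points (two-sided exact permutation p = 0.1, the smallest that 3 against 3 allows). Over the 9 shares tested in this way the adjusted p was 0.18.

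E-cadherin is richer in periportal than in pericentral hepatocytes, which are the cells at either end of the liver lobule. Of 9 periportal genes tested 5 fell (55.6% changed), and of 10 pericentral genes 4 fell and 1 rose (50%), against 55.1% of all genes that changed and 26.0% that fell. The summed periportal level was 20350 to 23300 CPM among EV and 10560 to 14090 CPM among Sox4 libraries, and the pericentral level was 7228 to 8332 CPM among EV and 2505 to 3969 CPM among Sox4 libraries. The largest part of the pericentral sum in EV was Cyp2e1, at 4491 ± 812 CPM in EV and 818 ± 224 CPM in Sox4. Cyp1a2 overlapped, at 951 ± 71.2 and 1053 ± 323 CPM. Their part in the change of Cdh1 was not tested. In bulk RNA, fewer cells of a type and less RNA per cell cannot be told apart.

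The remaining cadherins were rare. Cdh24, a type II cadherin, had 10, 2 and 5 counts in EV and 53, 40 and 40 in Sox4. Every Sox4 library was above every EV library, with a ratio of means of 5.23 (log2 FC 2.37, SE 0.51, adjusted p = 0.00278). The log2 value was 3.08 without EV replicate 1. Cdh5, the cadherin of endothelial cells, had 24, 32 and 35 counts in EV and 34, 50 and 85 in Sox4. In CPM the groups overlapped, at 2.27 ± 0.37 and 2.86 ± 1.33 (0.33, SE 0.39, adjusted p = 0.486), and the log2 value was -0.10 without Sox4 replicate 3. Cdh17, known from intestinal epithelium, was below the filter, with 0 counts in each EV library and 6, 11 and 2 in Sox4.

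Of 5 connexins tested 4 fell, where 26.0% of all genes tested fell. Among the 4, Gja10 and Gjc3 passed the filter only through EV, so their direction was largely set by the filter. The others, Gjb1 and Gjb2, are those that dominate in hepatocytes. Gjb1 was at 934.2, 925.9 and 899.7 CPM in EV and 520.3, 394.9 and 301.2 CPM in Sox4. The EV libraries were nearly equal, and the Sox4 libraries were spread but all far below them. It fell to 44.1% of EV (log2 FC -1.18, SE 0.23, adjusted p = 0.000624). Gjb2 was at 347.3, 361.6 and 383.7 CPM in EV and 114.8, 130.5 and 129.0 CPM in Sox4. Both groups were tight and far apart, and the mean fell to 34.3% of EV (log2 FC -1.55, SE 0.07, adjusted p = 7.55e-06). With library size alone both stayed past the threshold as lower, at -0.71 and -1.07.

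Summed over all connexins the level was 691 ± 2.88 CPM per kb in EV and 290 ± 61.1 CPM per kb in Sox4. The summed claudins were at 176 ± 21.4 and 159 ± 28.5 CPM per kb, with overlapping libraries. Within the connexins the shares overlapped between groups, as in the plot of shares. Gjb1 made up 78.0 ± 1.24% in EV and 81.1 ± 5.002% in Sox4 (two-sided exact permutation p = 0.5), and Gjb2 21.9 ± 1.18% and 18.5 ± 4.85% (two-sided exact permutation p = 0.4). With 3 libraries a group this does not show that the shares were equal.

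Within the claudins, the shares of Cldn2 and Cldn1 did not overlap between groups. Cldn2 made up 20.7%, 19.98% and 26.5% of claudin counts per kb in EV and 9.51%, 11.8% and 7.94% in Sox4. Cldn1 made up 14.7%, 14.1% and 14.4% in EV and 17.9%, 19.4% and 28.0% in Sox4. The share of Cldn2 was lower in 3 of 3 Sox4 libraries and that of Cldn1 higher in 3 of 3. Shares are parts of a common sum, so a lower share of Cldn2 by itself raises those of other claudins. The means were 22.4 ± 3.56% and 9.76 ± 1.96% for Cldn2, and 14.4 ± 0.31% and 21.8 ± 5.44% for Cldn1. Cldn12 (12.3 ± 0.99% to 8.43 ± 2.17%) and Cldn6 (0.0156 ± 0.0270% to 1.40 ± 0.36%) did not overlap either. Each of these 4 shares had the two-sided exact permutation p of 0.1, the smallest possible, with 0.18 after adjustment over the 9 shares. Cldn3 was the largest share in both groups, at 47.8 ± 5.02% and 53.8 ± 6.77% with overlap (two-sided exact permutation p = 0.4), and Cldn14 was at 2.85 ± 0.42% and 3.79 ± 0.70% (two-sided exact permutation p = 0.2).

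**Figure D3:**
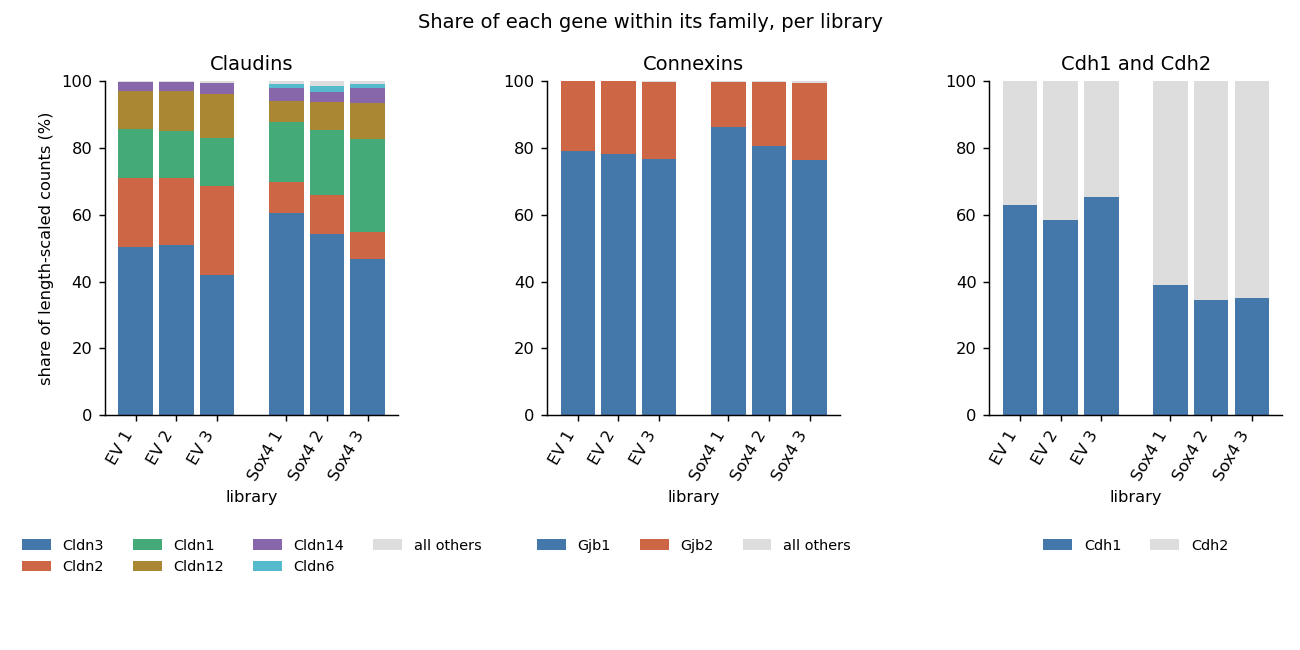
Share of each gene (% of length-scaled counts) within the claudins, within the connexins and within Cdh1 plus Cdh2, as stacked bars for each of 3 EV and 3 Sox4 libraries. The Cdh1 share spans 58.4% to 65.4% in EV and 34.5% to 39.1% in Sox4, while Gjb1 holds 76.3% to 86.3% of the connexins in all 6 libraries.

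The other connexins tested had few counts. Gja10, known from retinal neurons, had 12, 11 and 12 counts in EV and 1, 2 and 1 in Sox4. All Sox4 libraries were under the floor, so the level was at least 5.78-fold lower (adjusted p = 0.000744). Gjc3, known from glia, had 14, 11 and 29 counts in EV and 8, 9 and 9 in Sox4. Its call as lower (log2 FC -1.60, SE 0.37, adjusted p = 0.0181) rested on few counts. It did not pass without EV replicate 3 (-1.12, adjusted p = 0.0924), without Sox4 replicate 2 (-1.63, adjusted p = 0.0509) or with library size alone (-1.13, adjusted p = 0.0642). Gja4, a connexin of arterial endothelium, had 0, 2 and 9 counts in EV and 15, 25 and 21 in Sox4. It did not pass (1.88, SE 0.80, adjusted p = 0.0585), but did with library size alone (2.35, adjusted p = 0.0206) and without EV replicate 3 (3.63, adjusted p = 0.00832).

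Below the filter, 4 members had at least 10 counts in a library. Cdh17 is given above. Gja1, the widespread connexin of mesenchymal cells and bile ducts, had 1, 0 and 4 counts in EV and 7, 17 and 39 in Sox4. The groups did not overlap, and Sox4 replicate 3 was the highest. Cldn23 had 1, 1 and 3 counts in EV and 11, 10 and 10 in Sox4, at least 2.32-fold higher than the floor. Cldn5, the claudin of endothelium, had 3, 5 and 7 counts in EV and 11, 13 and 7 in Sox4, with overlap. Of the others below the filter, 22 had 1 to 8 counts in their highest library, and were not compared at this depth. For the 25 members with 0 counts, a count of 0 allows up to 0.231 CPM in an EV library and 0.153 CPM in a Sox4 library, and this covers counting error only.

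Some members are typical of other liver cells, and markers of those cells were measured too. Their called genes are set against all genes tested, of which 55.1% changed and 29.0% rose. Endothelial markers went 3 up and 1 down of 12 tested (33.3% changed), with a summed level of 27.0 to 45.1 CPM over EV and 31.2 to 65.6 CPM in Sox4. Stellate and mesenchymal markers went 3 up of 5 tested (60%), at 9.09 to 47.1 CPM among EV and 88.8 to 145 CPM among Sox4 libraries. Much of that sum was Reln, at 7.09, 22.6 and 37.5 CPM in EV and 126, 117 and 50.8 CPM in Sox4. With Reln left out, the EV sums were 2.00, 4.63 and 9.51 CPM and the Sox4 sums 9.32, 27.9 and 38.0 CPM. The groups overlapped only in that Sox4 replicate 1 lay just under EV replicate 3. Sox4 replicates 2 and 3 lay above every EV library. Kupffer cell markers went 4 up of 9 tested (44.4%), at 13.4 to 28.8 and 29.1 to 67.9 CPM. The leukocyte list had 1 gene tested, which did not pass, and the mesothelial list had 0 tested, with at most 1.01 CPM in sum. The part of these cells in the values of Gja1, Gja4, Cdh5 and Cldn5 was not tested. Cholangiocyte markers went 3 up of 6 tested (50%), at 72.9 to 89.5 CPM among EV and 128 to 143 CPM among Sox4 libraries. Those that rose were Epcam (log2 FC 4.05, adjusted p = 0.000638), Spp1 (2.89, adjusted p = 2.99e-06) and Aqp1 (1.17, adjusted p = 0.0198). Epcam had 1, 0 and 5 counts in EV and 55, 39 and 60 in Sox4, so it passed the filter only through Sox4. The groups of Aqp1 overlapped. The defining keratins were at or near 0. Krt19 had 0 counts in each EV library and 9, 2 and 7 in Sox4, and Krt7 had 0 in each EV library and 2, 1 and 7 in Sox4.

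By level per kb, the order of the members was not the same in both groups. In EV it was Gjb1 (539 ± 10.6 CPM per kb), Gjb2 (151 ± 7.63), Cldn3 (84.8 ± 18.4), Cldn2 (38.9 ± 1.68) and F11r (32.8 ± 2.23), and none of these neighbours overlapped. Cldn1 (25.3 ± 3.27), which overlapped the next pair, Cdh1 (24.3 ± 1.90) and Cldn12 (21.4 ± 1.12) followed, then Cdh2 (14.8 ± 1.74). In Sox4 it was Gjb1 (238 ± 64.4), Cldn3 (86.8 ± 26.1), F11r (71.2 ± 4.67), Gjb2 (51.9 ± 3.59), Cldn1 (33.7 ± 2.87), Cdh2 (24.2 ± 0.50), Cldn2 (15.7 ± 4.60) and Cdh1 (13.8 ± 1.78). Of these, Cldn3 overlapped F11r and Cldn2 overlapped Cdh1. Gjb2 moved from rank 2 to rank 4, Cldn2 from 4 to 7, F11r from 5 to 3 and Cdh2 from 9 to 6. Lengths come from another genome build than the counts, and a level per kb assumes that all annotated exons are used.

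Genes that work with the junction proteins were examined as lists: catenins and other adherens partners, other tight junction genes, apical polarity genes, desmosome genes and pannexins. Of 80 entries, 78 were found in the table and 61 were tested, of which 25 rose and 10 fell (57.4%, against 55.1% of all genes). Of the partner genes named below, Pkp1, Panx1, Pard6g, Evpl, Marveld3 and Arhgef2 passed the filter only through Sox4. Their direction was thus largely set by the filter. Among adherens partners 8 rose and 3 fell of 15 tested (73.3% changed, against 55.1% of all genes), with a median log2 fold change of 0.41. Pvr, a nectin-like receptor, rose from 8.88 ± 1.15 to 29.2 ± 2.26 CPM (1.72, SE 0.13, adjusted p = 1.27e-05). Ctnnal1, related to alpha-catenin, rose by 1.53 and Shroom3, which gathers actomyosin at the apical junction, by 1.18 on the log2 scale. Lima1, an actin-binding protein, dropped from 63.6 ± 2.31 to 31.7 ± 2.6998 CPM (-1.003, SE 0.08, adjusted p = 4.91e-05). Nectin3, a nectin, fell by 0.88 on the log2 scale, but did not pass with library size alone (-0.40, adjusted p = 0.0652). Afdn, which links nectins to actin, fell by 0.33 on the log2 scale with TMM, but lay at 0.14 with library size alone, and did not pass without Sox4 replicate 2 (adjusted p = 0.0513). The catenins that bind cadherins are named as well, chosen after their values were seen. Ctnnd1 (log2 FC 1.002, adjusted p = 6.68e-05), Ctnna1 (0.67, adjusted p = 0.00133), Jup (0.45, adjusted p = 0.0360) and Ctnnb1 (0.41, adjusted p = 0.0142) rose, while Cdh1 fell and Cdh2 rose. The groups of Jup overlapped, with Sox4 replicate 3 at 61.9 CPM and EV replicate 1 at 62.6 CPM. The calls of these catenins were not followed singly over the alternatives.

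Of 18 other tight junction genes tested, 8 rose and 2 fell (55.6% changed, median 0.55). Of all genes tested 55.1% changed, 29.0% rising and 26.0% falling. Amotl2, an angiomotin at the junction and a known partner of YAP, rose from 25.1 ± 4.10 to 123 ± 11.1 CPM (2.30, SE 0.15, adjusted p = 2.12e-06). Marveld3, of the same family as Ocln and Marveld2, rose from 1.10 ± 0.55 to 10.3 ± 1.61 CPM (3.22, SE 0.44, adjusted p = 3.84e-05). All 3 genes of that family were thus measured, and 2 of them rose. Arhgef2, a nucleotide exchange factor of tight junctions, had 0, 0 and 5 counts in EV and 16, 29 and 24 in Sox4 (3.15, SE 0.71, adjusted p = 0.0105), and its fitted value was 7.33 without EV replicate 3. Ildr2, of the angulin family at tricellular junctions, dropped from 29.6 ± 5.97 to 4.75 ± 0.71 CPM (-2.64, SE 0.20, adjusted p = 5.04e-06). Mpdz, a scaffold with many PDZ domains, fell by 0.78 on the log2 scale (adjusted p = 0.000340).

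Apical polarity genes went 4 up and 2 down of 16 tested (37.5% changed, against 55.1% of all genes, median 0.10). Pard6g, a Par6 protein, rose from 0.353 ± 0.122 to 7.51 ± 0.58 CPM (4.39, SE 0.24, adjusted p = 5.08e-06). Llgl1, of the basolateral polarity complex, rose by 1.59 and Patj, of the Crumbs complex, by 0.79 on the log2 scale. Stk11, the polarity kinase LKB1, dropped from 99.9 ± 11.7 to 46.3 ± 15.1 CPM (-1.11, SE 0.27, adjusted p = 0.00196). Prkcz, an atypical protein kinase C, fell by 0.95 on the log2 scale.

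Desmosome genes, which anchor keratin filaments, went 4 up and 3 down of 11 tested (63.6% changed, against 55.1% of all genes, median 0.23). They held the highest fitted value of the lists. Pkp1, a plakophilin of stratified epithelium, had 0, 0 and 3 counts in EV and 695, 576 and 760 in Sox4. It reached 34.3 ± 4.57 CPM, at least 152-fold higher (adjusted p = 6.71e-07). Evpl, which encodes envoplakin, had 3, 3 and 2 counts in EV and 81, 77 and 63 in Sox4, at least 16.5-fold higher (adjusted p = 2.53e-05). Its partner Ppl, periplakin, rose from 20.5 ± 7.53 to 73.2 ± 8.77 CPM (1.83, SE 0.30, adjusted p = 0.000201). Perp, a desmosome protein and p53 target, dropped from 119 ± 5.22 to 42.7 ± 12.8 CPM (-1.48, SE 0.24, adjusted p = 0.000156), and Dsc2, a desmosomal cadherin, fell to a log2 FC of -1.21 (SE 0.24, adjusted p = 0.000603).

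Pannexins form membrane channels related in shape to connexins but open to the outside of the cell. Panx1, the one of 3 that passed the filter, had 3, 10 and 10 counts in EV and 852, 897 and 752 in Sox4. Its level went from 0.572 ± 0.296 to 42.2 ± 3.88 CPM (log2 FC 6.18, SE 0.44, adjusted p = 3.05e-07). The groups of Panx1, Gjb1 and Gjb2 did not overlap, as was so for 63.0% of all genes tested. Panx1 passed the filter only through Sox4. A link between Panx1 and the connexins was not tested.

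**Figure D4:**
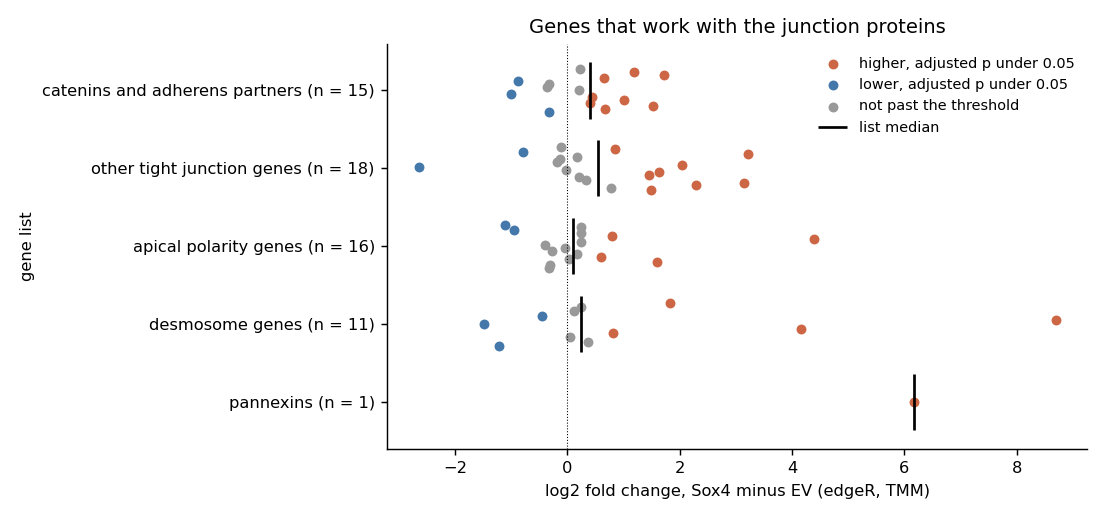
Log2 fold change (Sox4 minus EV, edgeR with TMM) of the 61 tested partner genes in 5 lists, a point per gene coloured by call, with a line at each list median. Points of 4 of the 5 lists lie on both sides of 0, and Pkp1 (8.70), Panx1 (6.18), Pard6g (4.39) and Evpl (4.17) lie farthest to the right. Each of the genes named passed the filter only through Sox4, so its direction was largely set by the filter.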

How the data were processed

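RNA was isolated with a Nucleospin kit and sequenced in 6 libraries, 3 of EV and 3 of Sox4, grouped by the sample titles. Per the labels, the authors aligned reads to GRCm39 with STAR 2.7.10b and assigned them to genes with featureCounts 2.0.1. Raw counts per gene were deposited. Annotation release, strand setting and handling of reads with several matches were not given in the sources used here. A deposited table from DESeq2 held counts divided by size factors (signal), used only in 1 alternative on log2(value + 1).

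The tools were R 4.3.3, edgeR 4.0.16, limma 3.58.1, with DESeq2 1.42.0 for an alternative. Genes were kept by filterByExpr (minimum count 10, minimum total 15), scaled by TMM and tested by the robust quasi-likelihood test without covariates, with adjustment over 12691 genes and a threshold of 0.05. The script was tested on simulated data. The SE belongs to the difference of mean log2 CPM between groups (prior count 2). A bound is the mean CPM of the higher group over the mean CPM of 3 counts per library in the other. Total counts were 15090629 to 16964860, and replicate libraries differed beyond counting noise. Intervals and floors cover counting error only, as PCR reads are not independent molecules.

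Shares within a family are counts per union exon length (GENCODE M21, GRCm38, lengths only), compared by exact permutation with SciPy 1.17.1. Overlap with other annotated exons was 3.2% of Cldn3 and 1.1% of Tjp3, and 0 for the other members named here that were tested. Every member past the filter is named except 1, which is counted but not reported here, as are those below it with at least 10 counts in a library, and in each partner list up to 3 genes in each direction past the threshold without overlap. Members and lists were chosen with earlier results of these data known.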

Additional observations from a re-analysis of the deposited data

How the results depend on the processing

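Over the alternatives the number of junction genes past the threshold lay between 11 (mean count at or over 50, 15 tested) and 22 (no filter, 48 tested), against 16, and every shared call kept its direction. With no filter 15 rose. The 6 gained there were Cdh17, Cdh3, Cldn15, Cldn7, Gja1 and Gja4, named here because they were gained. The median log2 fold change of the members was 0.77 with library size alone, 0.54 with no filter and 0.076 where the mean count was 50 or more. With library size alone the median of all genes moved to 0.51 and 79.9% of called genes were higher, against 52.7% with TMM. There Ocln was at 0.34 and Afdn at 0.14, Cldn12, Gjc3, Nectin3 and Afdn lost the threshold, and Cldn14 and Gja4 gained it. DESeq2 made the same 16 calls, and limma-voom and limma on the deposited values added Gja4.

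Leaving out a library gave 14 to 16 calls. It moved these values across 0: Cldn3 ranged from -0.206 to 0.232, Tjp3 from -0.164 to 0.279, Ocln from -0.199 to 0.0085 and Cdh5 from -0.0963 to 0.591. Those beyond 0 were Cldn3 and Tjp3 without EV replicate 3 or Sox4 replicate 1, Ocln without EV replicate 3 and Cdh5 without Sox4 replicate 3. The summed shift in connexin shares, 3.42 percentage points, ranged from 0.898 to 5.75. The cause was not tested. The claudin shift of 16.6 points was 21.2 without division by length, and the difference in the Cdh1 share kept its sign throughout. Of 607 values of single genes, 581 held both sign and call, 11 lost the call with the same sign, 7 gained it and 8 changed sign, among them Afdn with library size alone, which also lost the call.

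The deviations of libraries with equal replicate number had correlations of 0.273, -0.0898 and 0.131 over genes, and they share only a number. With the replicate block 17 members passed, the 16 and Gja4, and no other member's call changed. Depth limits the members near the floor, whose fold changes over EV are bounds.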
